A study of Mus musculus with 18 samples.

Results

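The difference between 24 h and 4 h after a single gavage was examined in the ileal epithelium of suckling mice, over all 3 treatments together. The comparison set the 9 arrays titled 24 h against the 9 titled 4 h, which is all 18 arrays of the study. CD-1 mice, an outbred stock, of both sexes were gavaged at 11 days of age, so the pups sampled after 4 h were 11 days old and those sampled after 24 h were 12 days old. At each time 3 pups had received 50 uL of phosphate-buffered saline (PBS), 3 had received Lactobacillus reuteri DSM 17938 and 3 had received L. reuteri ATCC PTA 6475, each strain at 1e+08 colony-forming units in 50 uL of PBS. L. reuteri is a gut bacterium used as a probiotic. Every pup, the PBS controls included, was gavaged, and none was sampled before gavage. Epithelial cells were lifted from 24 sections of the last 4 cm of each ileum by laser capture, and RNA was read on Illumina mouse bead arrays, 1 array per pup. The time since gavage and the age of the pup moved together, and the labels give no hour of the day, so that age, time since gavage and hour of sampling cannot be told apart here. In tissue of this kind, fewer cells of a type and less RNA per cell cannot be told apart either.

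The ileum of a suckling mouse takes up milk protein whole through enterocytes rich in lysosomes, absorbs milk fat, and renews its epithelium from dividing cells at the base of the villi. Over the weeks to weaning it takes on adult functions such as bile acid uptake, secretory antibody transport and a fuller antimicrobial defence. Interferons, which cells release on sensing viral or bacterial products, switch on a common set of antiviral and antigen-presenting genes in the gut lining.

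Mean signal per array ranged from 303.2 to 459.7 at 4 h and from 210.3 to 439.2 at 24 h, with means of 363 ± 53.5 and 339 ± 74.5 (SD, n = 9 each; exact two-sided permutation test within treatments, p = 0.441). Of 45281 probes, 20607 to 22848 were detected per array at 4 h and 20284 to 22406 at 24 h (exact two-sided permutation test, p = 0.231). The smallest p that this test allows is 0.00025. Signal over background and the number of pups limit the precision. The array with the lowest mean signal was pup 2 of the ATCC PTA 6475 group at 24 h. Judged from Xist, which marks female cells, 3 of 9 pups at 4 h and 5 of 9 at 24 h were female, and the part of sex in the differences was examined with a covariate. The replicate letters of the titles coincide with 3 sets of consecutive array identifiers, each set holding 1 array of all 6 groups, and the labels do not say what a set shares. Values within the sets are given for several genes and lists below. All values below are normalised log2 signals of 1 probe per gene, a difference is that of 24 h minus 4 h on this scale, and p-values come from limma fitted to all 18 arrays with treatment as a factor.

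No feature passed an adjusted p of 0.05 among the 16835 tested, which were 12804 named genes and 4031 unnamed probes (0%, lowest limma adjusted p = 0.348). At an unadjusted p under 0.05 there were 992 features, of which 549 were higher at 24 h (3.26%) and 443 were lower (2.63%), while 842 features would be counted on average with no difference at all. The split of these 992 depended on the scaling of the arrays: with arrays scaled to a common median in place of quantile normalisation, 129 were higher and 415 were lower. The median difference over all features was -0.003, with 49.0% of features higher and 51.0% lower. A difference had a median SE of 0.105. In 2 features the 9 arrays of each time did not overlap (0.0119%). They were Cenpm, higher at 24 h, and an unnamed probe, lower at 24 h. With the replicate number as a block, 1 feature passed, Mt2, and at an unadjusted p under 0.05 there were 804 higher and 565 lower. No other gene named below passed in either fit, and each is described as higher or lower by its value alone. The difference had the same sign in each of the 3 sets in 24 of the 24 leading genes, which were picked on these arrays, and in 27.0% of all features.

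Interferon-stimulated genes were lower at 24 h. Of 23 genes of this list that were measured, 21 were lower and 2 higher, with a median difference of -0.24. At an unadjusted p under 0.05 there were 8 lower genes and 0 higher ones. Under median scaling, where all features had a median of -0.06, the list's median was -0.32 and 10 genes were lower at that p. Isg15, a ubiquitin-like protein that is joined to other proteins after interferon, had its lowest, median and highest signals at 7.43, 7.77 and 9.04 at 4 h and at 6.21, 7.22 and 7.70 at 24 h. Thus 7 of the 9 pups at 24 h lay below every pup at 4 h. The difference was -0.97 (SE 0.22), which is 1.96-fold lower (limma adjusted p = 0.411). Ifit3, which binds antiviral signalling proteins, stood between 7.50 and 10.21 at 4 h, with a median of 8.38, and between 6.52 and 8.39 at 24 h, with a median of 6.75. The groups overlapped through 2 pups at 24 h, and the difference was -1.33 (SE 0.34, 2.51-fold lower, limma adjusted p = 0.425). Usp18, the protease that removes Isg15 from proteins, differed by -0.71 (SE 0.22), and Igtp, an interferon-inducible GTPase, by -0.53 (SE 0.17), with limma adjusted p-values of 0.628 and 0.663. Rsad2, the antiviral enzyme viperin, was singled out after its values were seen for its difference of -1.14 (limma unadjusted p = 0.0139). The rest of the 8 were Irf7, the factor that amplifies interferon production, at -0.35, and the antiviral genes Mx2 at -0.51 and Oasl2 at -0.42. They too were named after their values were seen.

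**Figure D1:**
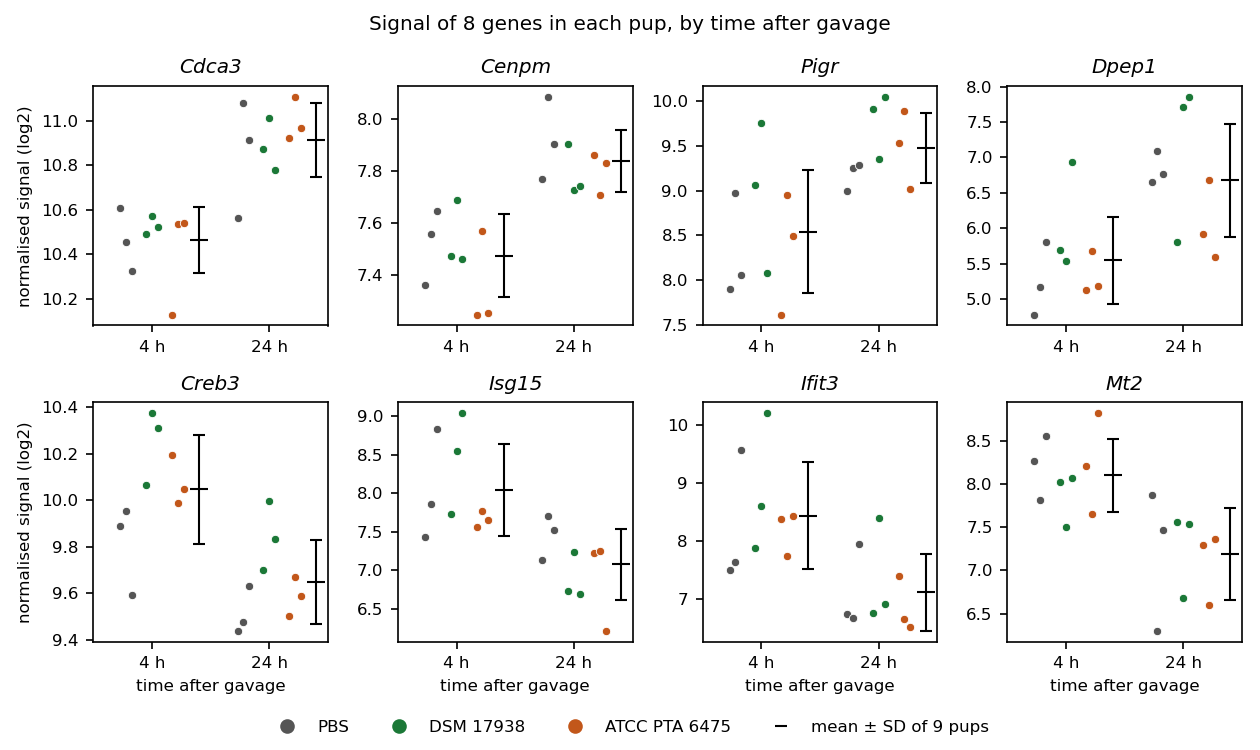
Normalised log2 signal of 8 genes (vertical axis) in each pup at 4 h and 24 h after gavage (horizontal axis), with pups coloured by treatment and a bar for the mean ± SD of 9 pups. Cdca3, Cenpm, Pigr and Dpep1 were higher at 24 h and Creb3, Isg15, Ifit3 and Mt2 were lower; only Cenpm had no overlap among these 8, and the vertical axes differ and do not start at 0.

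The interferon response element, the site at which interferon-activated factors bind DNA, is shown here because it is shared across the list. In RefSeq promoters of build GRCm38.p6, the letters TTTC, then 2 bases of any kind, then TTTC, searched on both strands within 250 bases before a gene's start, were found in 11 of the 17 list members that have an entry. Of all 27025 genes with an entry, 3.46% held them, a gene with several starts being counted if any start did. The 200 bases before the start of 3 members follow, 5′ to 3′ on the strand of the gene, with matches in capitals; overlapping matches run together, as in Isg15, which has 3.
Isg15, chr4:156200819-156201018, minus strand: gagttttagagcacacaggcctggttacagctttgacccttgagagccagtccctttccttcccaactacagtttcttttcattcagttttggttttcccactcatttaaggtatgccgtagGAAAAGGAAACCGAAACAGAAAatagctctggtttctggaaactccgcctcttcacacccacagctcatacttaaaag
Ifit3, chr19:34583329-34583528, plus strand: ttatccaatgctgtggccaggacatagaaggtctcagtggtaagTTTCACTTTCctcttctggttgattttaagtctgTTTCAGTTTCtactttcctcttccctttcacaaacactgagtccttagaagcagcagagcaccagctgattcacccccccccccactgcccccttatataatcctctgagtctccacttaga
Rsad2, chr12:26456453-26456652, minus strand: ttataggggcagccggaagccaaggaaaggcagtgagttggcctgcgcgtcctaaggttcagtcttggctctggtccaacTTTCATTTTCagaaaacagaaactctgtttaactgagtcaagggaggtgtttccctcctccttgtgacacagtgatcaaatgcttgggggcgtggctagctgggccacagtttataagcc
A match describes the sequence and was not tested as a binding site.

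The level of the interferon list in single pups was uneven. Averaged over the 23 genes, each centred on its mean over the 18 arrays, the list ranged from -0.18 to 0.85 at 4 h and from -0.37 to 0.10 at 24 h. The highest pups were the third of the DSM 17938 group at 0.85 and the third of the PBS group at 0.65, both at 4 h. In those pups Ifit3 stood at 10.21 and 9.57. Without both arrays, a choice made after their values were seen, the median of the list was -0.15, 4 genes were lower at an unadjusted p under 0.05, and Isg15 and Ifit3 differed by -0.74 and -0.92. Within treatments the median difference of the list was -0.25 in PBS pups, -0.37 in DSM 17938 pups and -0.14 in ATCC PTA 6475 pups. Within the 3 sets of arrays the median of the list was -0.12, -0.08 and -0.62, the last being the set of both high pups. Over the list, 15 of 23 genes had the same direction in each of the 3 treatments, against 29.6% of all features. Beside this, the 9 measured lymphocyte genes had a median difference of -0.001 and the 14 measured myeloid genes one of 0.20, with none of either at an unadjusted p under 0.05. The lymphocyte median was not even, being 0.26 in PBS pups, -0.01 in DSM 17938 pups and -0.51 in ATCC PTA 6475 pups. Within the 3 sets of arrays the lymphocyte median was 0.38, -0.10 and -0.47, and the myeloid median 0.26, 0.13 and -0.21. In the third pups of the PBS and DSM 17938 groups at 4 h the centred myeloid level was 0.16 and -0.03. The part of immune cells in the interferon values was not tested.

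Genes of antigen presentation on MHC class I, several of which interferon also induces, were lower as well, in 9 of 12 measured genes (median -0.21). At an unadjusted p under 0.05 there were 5 lower genes and 0 higher ones. Under median scaling the list's median was -0.29 and 4 genes were lower at that p. Tap2, a subunit of the transporter that carries peptides into the endoplasmic reticulum, ranged from 9.12 to 9.80 at 4 h (median 9.40) and from 8.66 to 9.38 at 24 h (median 9.15). Its partner subunit Tap1 ranged from 6.28 to 6.87 at 4 h (median 6.40) and from 5.56 to 6.59 at 24 h (median 6.02). The times overlapped for both, with 4 pups at 24 h below all 4 h pups for Tap2 and 6 for Tap1. Their differences were -0.34 (SE 0.09) and -0.42 (SE 0.12), with limma adjusted p-values of 0.491 and 0.574. The immunoproteasome subunits Psmb8 and Psmb10, which cut proteins into presentable peptides, differed by -0.51 and -0.21. Psmb8 was 0.09 in PBS pups, -0.58 in DSM 17938 pups and -1.03 in ATCC PTA 6475 pups, so its direction was not shared by the controls. Without the 2 pups that had the highest interferon levels the median of the class I list was -0.23. The count of 5 fell to 3 without the third PBS pup at 4 h and to 2 without the third ATCC PTA 6475 pup at 24 h. Within the sets the median was -0.01, -0.30 and -0.39. The 9 MHC class II genes had a median of -0.04, 4 being higher and 5 lower, and within the sets their median was 0.69, -0.36 and -0.50.

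**Figure D2:**
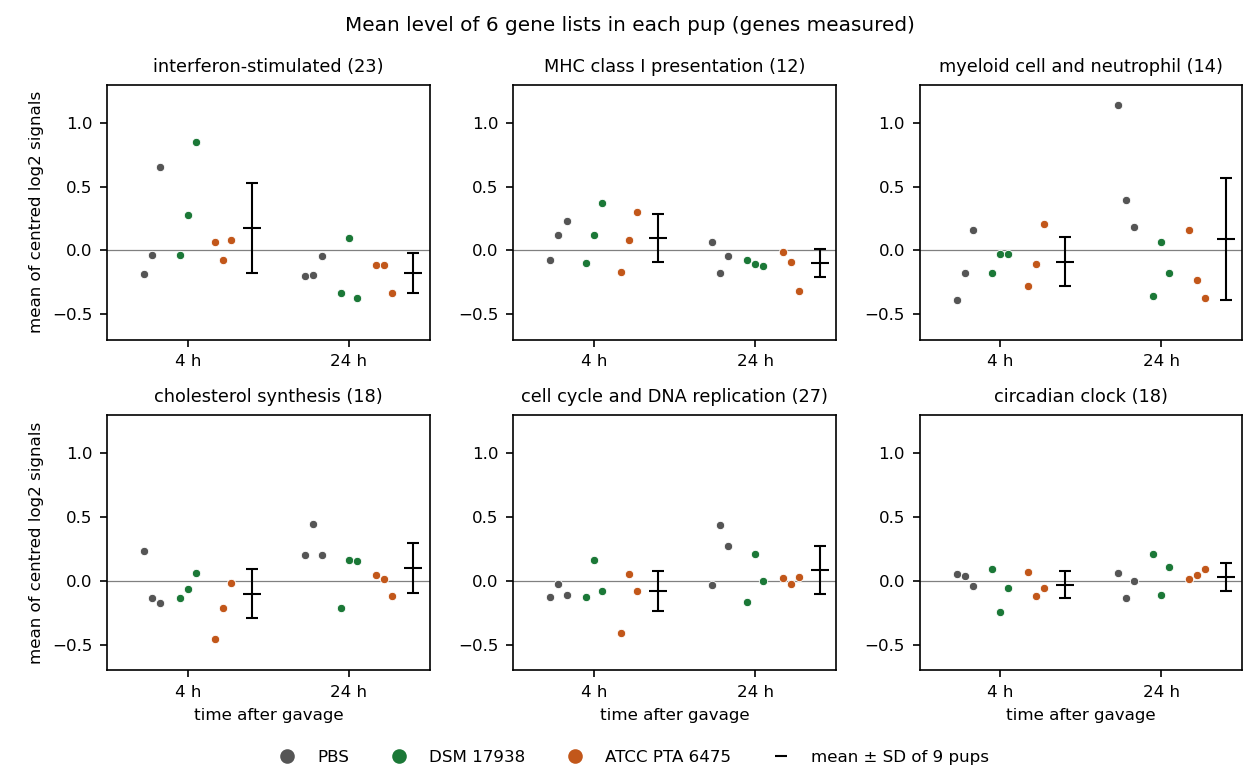
Mean of the centred log2 signals of 6 gene lists (vertical axis) in each pup at 4 h and 24 h (horizontal axis), coloured by treatment, with the mean ± SD of 9 pups. For interferon-stimulated genes the third pups of the PBS and DSM 17938 groups at 4 h, at 0.65 and 0.85, stand above the rest, and 1 PBS pup at 24 h has the highest myeloid level at 1.14.

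Cell division genes were higher at 24 h, least so in DSM 17938 pups. In the list of cell cycle and DNA replication, 24 of 27 measured genes were higher, with a median difference of 0.16, and 8 were higher at an unadjusted p under 0.05 with none lower. That count was 12 with the replicate block and 4 to 13 on leaving out 1 array, being 4 without the first ATCC PTA 6475 pup at 4 h or the second PBS pup at 24 h, 5 without the first or second PBS pup at 4 h or the third PBS pup at 24 h, and 13 without the second DSM 17938 pup at 4 h. Within the sets the median was 0.13, 0.14 and 0.22. Within treatments it was 0.34 in PBS pups, 0.03 in DSM 17938 pups and 0.19 in ATCC PTA 6475 pups. In DSM 17938 pups 16 genes were higher and 11 lower. Over the list, 13 of 27 genes had the same direction in each of the 3 treatments, against 29.6% of all features. The next 4 genes are not members of the list and were named for their small p. Cdca3, which helps trigger entry into mitosis, had its lowest, median and highest signals at 10.13, 10.52 and 10.61 at 4 h and at 10.56, 10.92 and 11.11 at 24 h. A single PBS pup at 24 h overlapped the pups at 4 h. The difference was 0.45 (SE 0.08, 1.36-fold higher, limma adjusted p = 0.348). Cenpm, a centromere protein, ranged from 7.24 to 7.69 at 4 h (median 7.47) and from 7.71 to 8.09 at 24 h (median 7.83). All 9 pups at 24 h were above all 9 at 4 h. The difference was 0.37 (SE 0.07, 1.29-fold, limma adjusted p = 0.374), and other probes of Cenpm gave 0.38 and 0.25. Tmpo, a lamina-associated protein of the inner nuclear membrane, was 0.31 higher and Knl1, a scaffold of the kinetochore, 0.33 higher, each by 0.28 to 0.38 within every treatment. Other probes gave smaller values, 0.09 and 0.07 for Tmpo and 0.10 for Knl1. Knl1 was near background, being detected in 5 of 9 pups at 4 h and in 9 of 9 at 24 h.

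Within the list, Cdc6, which licenses replication origins, had the smallest p, with 5.96 to 7.08 at 4 h (median 6.80) and 6.74 to 7.53 at 24 h (median 7.04). The times overlapped, with 4 pups at 24 h above all those at 4 h, and the difference was 0.44 (SE 0.13, limma adjusted p = 0.628). Ccnd1, the cyclin of the G1 phase, differed by 0.21 (SE 0.07), and Rrm2, a subunit of ribonucleotide reductase, by 0.33 (SE 0.11). Mcm6, a subunit of the replicative helicase, differed by 0.33, but its other probes gave -0.12 and -0.07. With arrays scaled to a common median, the list's median was 0.10, that of all features being -0.06. In that setting 1 gene was higher at an unadjusted p under 0.05. Replication-dependent histone genes, a list chosen after its values were seen, were higher in 40 of 45 (median 0.20), with 18 at an unadjusted p under 0.05 under quantile normalisation and 5 under median scaling. Histone genes are near-identical copies of each other, so their probes may share targets and are not separate measurements. Crypt stem cell and Wnt target genes did not share this direction, 7 being higher and 9 lower (median -0.03), and Sox9, a factor of crypt cells, was lower by 0.26 (SE 0.11). Genes of apoptosis and p53 response were lower in 15 of 19 (median -0.08), with none at an unadjusted p under 0.05.

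CCAAT boxes, bound by the factor NF-Y and known from promoters of mitotic and of sterol genes, are shown for members of both groups. The letters CCAAT on either strand within 250 bases before the start were found in 15 of 21 cell cycle genes and in 15 of 15 cholesterol genes with an entry, against 37.5% of all genes. Among histone genes 33 of 41 held them, and so did 7 of 9 MHC class I genes, a list that was lower at 24 h. The 200 bases before the start follow for 2 mitotic genes and 2 cholesterol genes, with matches in capitals.
Cdca3, chr6:124829976-124830175, plus strand: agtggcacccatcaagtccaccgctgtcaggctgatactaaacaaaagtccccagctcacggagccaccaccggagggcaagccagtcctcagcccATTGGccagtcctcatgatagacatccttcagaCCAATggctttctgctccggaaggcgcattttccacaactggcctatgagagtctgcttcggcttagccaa
Cenpm, chr15:82244337-82244536, minus strand: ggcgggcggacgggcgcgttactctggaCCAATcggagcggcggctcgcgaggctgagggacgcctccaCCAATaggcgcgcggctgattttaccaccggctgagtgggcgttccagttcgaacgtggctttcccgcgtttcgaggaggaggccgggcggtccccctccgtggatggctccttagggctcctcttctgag
Lss, chr10:76531405-76531604, plus strand: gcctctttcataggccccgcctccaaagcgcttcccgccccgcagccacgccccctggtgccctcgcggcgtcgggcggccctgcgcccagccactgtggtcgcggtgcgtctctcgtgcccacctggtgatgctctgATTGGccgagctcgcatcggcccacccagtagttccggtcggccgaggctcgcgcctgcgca
Mvd, chr8:122443423-122443622, minus strand: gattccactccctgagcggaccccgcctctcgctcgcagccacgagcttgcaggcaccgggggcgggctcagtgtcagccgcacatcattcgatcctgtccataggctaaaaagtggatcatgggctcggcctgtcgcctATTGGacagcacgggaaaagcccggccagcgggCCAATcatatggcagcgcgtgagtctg

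Sterol and fatty acid synthesis genes were higher at 24 h under quantile normalisation. Of 18 measured genes of cholesterol synthesis, 17 were higher and 1 lower (median 0.18), and 7 were higher at an unadjusted p under 0.05. Under median scaling, where all features had a median of -0.06, the list's median was 0.10 and 0 genes were past that p. Without the second or the third PBS pup at 24 h 4 genes were past it. Lss, which closes the sterol rings to make lanosterol, ranged from 8.56 to 9.43 at 4 h (median 8.88) and from 9.02 to 9.60 at 24 h (median 9.38). Dhcr7, the last enzyme of the path, ranged from 7.35 to 7.99 at 4 h (median 7.66) and from 7.50 to 8.48 at 24 h (median 8.20). The times overlapped for both genes, with 4 and 5 pups at 24 h above all pups at 4 h. The differences were 0.41 (SE 0.11) and 0.38 (SE 0.12), with limma adjusted p-values of 0.549 and 0.628. A second, dimmer probe of Lss gave -0.06. The sterol reductase Tm7sf2 differed by 0.28 and Mvd, which makes isopentenyl diphosphate, by 0.37. In DSM 17938 pups Lss differed by 0.01 and the list by a median of 0.06, against 0.31 in PBS pups and 0.23 in ATCC PTA 6475 pups.

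Fatty acid synthesis genes were higher in 10 of 12 (median 0.15), 5 of them at an unadjusted p under 0.05, or 2 under median scaling. Scd1 and Scd2, desaturases that make monounsaturated fatty acids, led the list. Scd1 ranged from 5.70 to 7.10 at 4 h (median 6.05) and from 6.34 to 8.04 at 24 h (median 6.97), and Scd2 from 6.09 to 7.68 (median 7.10) and from 6.71 to 8.44 (median 7.98). Both overlapped between the times, with 2 and 5 pups at 24 h above all those at 4 h. They differed by 0.79 (SE 0.24, 1.73-fold) and 0.73 (SE 0.23, 1.66-fold), with limma adjusted p-values of 0.617 and 0.628. The elongase Elovl6 differed by 0.30 and Srebf1, the gene of the factor that drives fatty acid synthesis, by 0.32; Srebf1 was -0.04 in ATCC PTA 6475 pups. Genes of fatty acid oxidation and ketogenesis showed no shared direction (10 higher, 11 lower, median -0.004), and 3 of them were lower at an unadjusted p under 0.05. These were Angptl4, an inhibitor of lipoprotein lipase, at -0.51 (SE 0.16), the thioesterase Acot1 at -0.16 and the carnitine carrier Slc25a20 at -0.20. In fat absorption and chylomicron assembly 9 of 14 genes were lower (median -0.05). Apob, the structural protein of chylomicrons, differed by -0.45 (SE 0.18) and lay between 9.64 and 10.61 at 4 h and between 9.16 and 10.33 at 24 h. Mfsd2a, a transporter of lysophospholipids, belonged to the 12 higher genes and differed by 0.61 (SE 0.13, limma adjusted p = 0.411), with signals of 4.39 to 5.22 at 4 h and 4.91 to 5.98 at 24 h. Slc27a1, a fatty acid transport protein, belonged to the 12 lower genes at -0.39 (SE 0.10), and 8 of the 9 pups at 24 h were below all pups at 4 h.

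**Figure D3:**
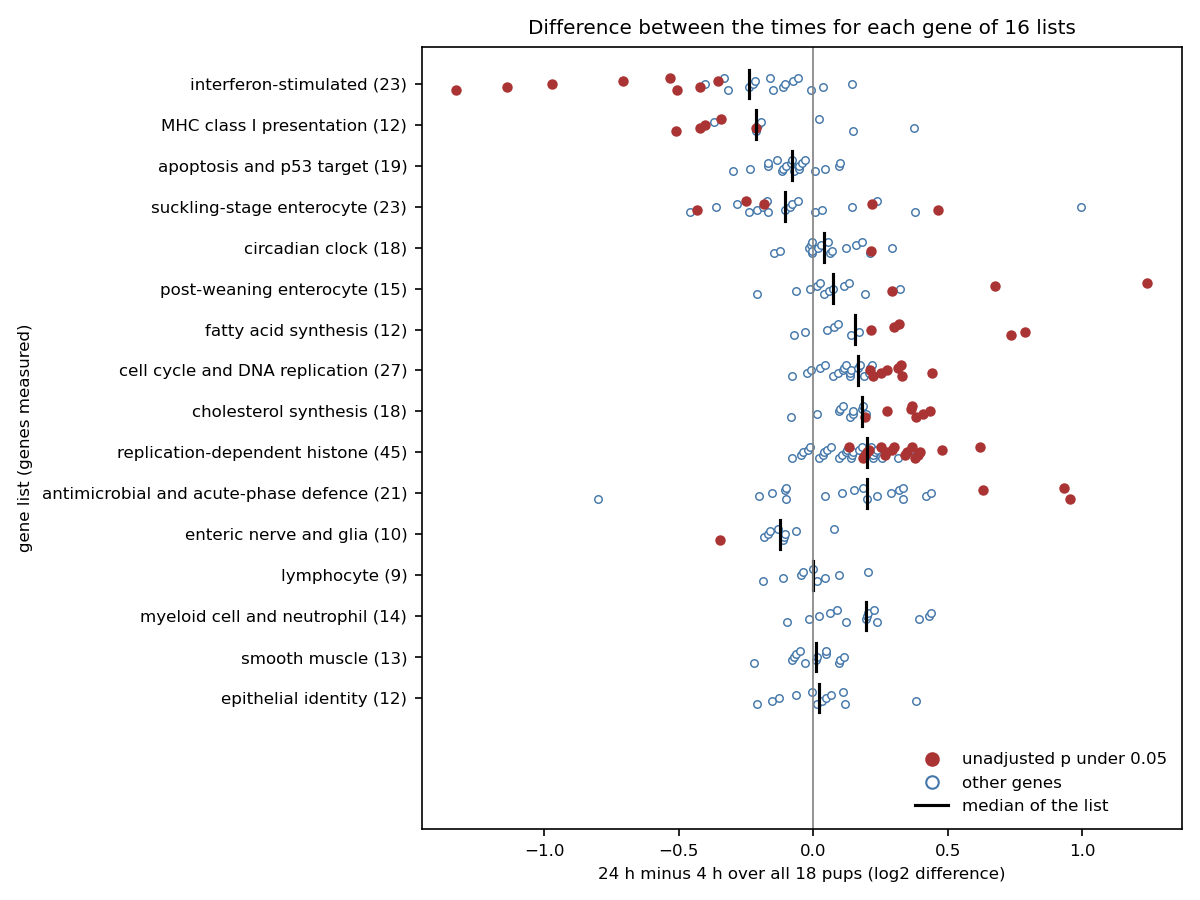
Difference of 24 h minus 4 h over 18 pups (horizontal axis, log2) for each measured gene of 16 lists (vertical axis, with the number of genes), filled where the unadjusted p was under 0.05, with a bar at the median of each list. Interferon-stimulated genes lie mostly below 0 (median -0.24), and cholesterol synthesis, cell cycle and histone genes mostly above 0 (medians 0.18, 0.16 and 0.20); none passed the adjusted test.

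The antibody transport gene Pigr was higher at 24 h, and antimicrobial genes were mostly higher over all pups but not within each treatment. Pigr, the receptor that carries secretory antibodies across the epithelium, had its lowest, median and highest signals at 7.62, 8.49 and 9.75 at 4 h and at 9.00, 9.35 and 10.05 at 24 h. The 3 highest pups at 24 h lay above all those at 4 h, and 7 of the 9 pups at 4 h lay below the lowest pup at 24 h. The difference was 0.93 (SE 0.22, 1.91-fold higher, limma adjusted p = 0.411), with 0.87 in PBS pups, 0.81 in DSM 17938 pups and 1.12 in ATCC PTA 6475 pups. Pigr differed by 1.29, 0.27 and 1.24 within the 3 sets of arrays. Of 21 measured genes of antimicrobial and acute-phase defence, 15 were higher and 6 lower (median 0.20), and 3 were higher at an unadjusted p under 0.05. Beside Pigr these were the secreted lectins Reg3a and Reg3g. Reg3a ranged from 8.24 to 10.07 at 4 h (median 9.31) and from 8.13 to 10.67 at 24 h (median 9.93), and Reg3g from 5.52 to 10.14 (median 7.01) and from 7.31 to 10.51 (median 8.09). The times overlapped for both lectins, whose differences were 0.63 (SE 0.29) and 0.95 (SE 0.45), with limma adjusted p-values of 0.825 and 0.846. Of the list, 17 genes were higher and 4 lower in PBS pups, and 11 were higher and 10 lower with either L. reuteri strain. Of all features, 49.4%, 49.2% and 50.9% were higher in PBS, DSM 17938 and ATCC PTA 6475 pups. The list's median was 0.45 in PBS pups, 0.00 in DSM 17938 pups and 0.03 in ATCC PTA 6475 pups. The myeloid list moved with it in PBS pups, with medians of 0.35, 0.07 and -0.11 in the same order. Summed as a mean signal, the 14 myeloid genes ranged from 6.34 to 6.94 at 4 h and from 6.35 to 7.87 at 24 h. The first PBS pup at 24 h had the highest level of them, where S100a9 and Stfa1, genes of neutrophils, stood at 8.27 and 7.80 against medians of 4.63 and 4.91. The part of these cells in the antimicrobial values was not tested. Without that pup the median of the antimicrobial list was 0.07, and it ranged from 0.07 to 0.31 over the arrays left out singly, with 1 to 4 genes higher at an unadjusted p under 0.05. Without the first DSM 17938 pup at 4 h it was 0.10, and without the second of that group at 4 h it was 0.31, as it was without the third ATCC PTA 6475 pup at 24 h. Within the 3 sets of arrays it was 0.66, 0.07 and 0.003. With a sex covariate it was 0.23, and 1 gene was higher at an unadjusted p under 0.05. The most negative difference in the list was that of Retnlb, a goblet cell protein that binds bacteria, at -0.80 (SE 1.23). For Retnlb it was -2.57 in PBS pups, 2.25 in DSM 17938 pups and -2.09 in ATCC PTA 6475 pups. It was named after its values were seen.

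Goblet cell genes, Retnlb among them, were higher in 8 of 13 (median 0.12), 2 of them at an unadjusted p under 0.05. The list's median was -0.02, -0.03 and 0.39 within the 3 sets of arrays. By treatment it was 0.15 in PBS pups, -0.06 in DSM 17938 pups, where 8 genes were lower, and 0.31 in ATCC PTA 6475 pups. Galnt12, which starts the sugar chains of mucins, differed by 0.37 (SE 0.11), and 7 pups at 24 h were above all those at 4 h. Klk1, a kallikrein protease, differed by 0.51 (SE 0.16) over all pups, by 0.91 in PBS pups, by 0.00 in DSM 17938 pups and by 0.61 in ATCC PTA 6475 pups. Paneth cell genes were higher in 7 of 10 (median 0.07), with none higher at an unadjusted p under 0.05 and Sox9 lower. Their median was 0.44, -0.01 and -0.24 within the sets.

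Several of the 12 higher genes encode enzymes and transporters of the enterocyte surface or metabolism. Dpep1, a brush border dipeptidase that also cleaves leukotriene D4, had the largest difference of the 24 leading genes. Its signal was 4.78 at the lowest, 5.53 at the median and 6.93 at the highest at 4 h, and 5.59, 6.68 and 7.85 at 24 h. The times overlapped, with 3 pups at 24 h above all those at 4 h, and the difference was 1.13 (SE 0.27, 2.19-fold higher, limma adjusted p = 0.411). The difference was 1.58 in PBS pups, 1.07 in DSM 17938 pups and 0.73 in ATCC PTA 6475 pups. Frrs1, a ferric reductase, differed by 0.55 (SE 0.11), with 6.07 to 7.01 at 4 h and 6.92 to 7.41 at 24 h. Ces1f, a carboxylesterase, differed by 0.66 (SE 0.15), with medians of 5.49 at 4 h and 6.14 at 24 h. Cyp4f40, a cytochrome P450 of the family that hydroxylates fatty acids and eicosanoids, differed by 0.71 (SE 0.17), and 8 of 9 pups at 24 h were above all those at 4 h. Slco4a1, an organic anion transporter, differed by 0.47 (SE 0.11), again with 8 pups above the 4 h range. Gcat, a mitochondrial enzyme of threonine breakdown, differed by 0.31 (SE 0.07), with 7 such pups. The limma adjusted p was 0.374 for Frrs1 and 0.411 for the other 4. Of the transporters of amino acids and peptides, 10 of 13 were higher (median 0.06), led by the glutamate transporter Slc1a1 at 0.48 (SE 0.13, limma adjusted p = 0.491), and a second probe of it gave 0.51. Genes of xenobiotic and steroid metabolism were even, 9 higher and 9 lower, with Cyp3a25 at 0.77 (SE 0.26) and Ces2e at 0.27 past an unadjusted p of 0.05.

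Mt1 and Mt2, metallothioneins that bind zinc, were lower at 24 h. Mt2 had its lowest, median and highest signals at 7.50, 8.07 and 8.82 at 4 h and at 6.30, 7.36 and 7.88 at 24 h. In 6 pups at 24 h it lay below all 9 pups at 4 h, and the difference was -0.91 (SE 0.21, 1.88-fold lower, limma adjusted p = 0.411). In the fit blocked on replicate number, the limma adjusted p of Mt2 was 0.00798, and within the 3 sets of arrays the difference was -0.59, -1.13 and -1.03. Mt1 ranged from 14.81 to 15.17 at 4 h (median 14.99) and from 14.05 to 15.09 at 24 h (median 14.61). For Mt1, 7 pups at 24 h were below all those at 4 h, and the difference was -0.43 (SE 0.14, limma adjusted p = 0.698). In 3 arrays at 4 h Mt1 was the brightest of all probes, and quantile normalisation gave these the same value, so that the difference is bounded by the top of the scale. Under median scaling it was -0.49. Mt3, the third metallothionein measured, differed by -0.13 (SE 0.12) and was named after its values were seen. Within treatments the differences ran from -1.14 in ATCC PTA 6475 pups to -0.61 in DSM 17938 pups for Mt2, and from -0.61 to -0.21 in the same groups for Mt1, with PBS pups in between. Slc39a4, the zinc importer of the enterocyte, differed by 0.38 (SE 0.15), and Cybrd1, a duodenal iron reductase, by -0.21 (SE 0.08). Over the 15 measured genes of metal binding and transport, 6 were higher and 9 lower (median -0.06). Metallothionein promoters are known for metal response elements, which the zinc-sensing factor MTF1 binds. The letters TGCACNC or TGCGCNC on either strand were found within 250 bases before the start in 6 of the 10 list members with an entry, Mt1 and Mt2 among them, and in 23.8% of all genes. Other lists held them too, with 10 of 15 clock genes and 9 of 21 cell cycle genes. The 200 bases before the start of both follow, with matches in capitals.
Mt1, chr8:94178889-94179088, plus strand: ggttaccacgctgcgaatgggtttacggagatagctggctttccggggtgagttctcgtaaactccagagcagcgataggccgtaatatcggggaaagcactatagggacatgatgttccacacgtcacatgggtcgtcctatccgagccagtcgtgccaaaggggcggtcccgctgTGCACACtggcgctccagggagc
Mt2, chr8:94172418-94172617, plus strand: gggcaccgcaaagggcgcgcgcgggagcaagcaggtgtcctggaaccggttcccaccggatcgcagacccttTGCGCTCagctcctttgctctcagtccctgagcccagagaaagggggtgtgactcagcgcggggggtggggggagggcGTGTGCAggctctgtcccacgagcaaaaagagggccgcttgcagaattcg

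The glucocorticoid-responsive list, which shares Mt1 and Mt2, had 11 of 19 genes lower (median -0.01), 3 of them at an unadjusted p under 0.05. Beside Mt2 and Mt1 this was Ddit4, an inhibitor of growth signalling, at -0.32 (SE 0.14).

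The other lower genes with the smallest p had varied roles. Creb3, a transcription factor held in the endoplasmic reticulum membrane, ranged from 9.59 to 10.38 at 4 h (median 10.05) and from 9.44 to 10.00 at 24 h (median 9.63). The times overlapped, 4 pups at 24 h being below all those at 4 h, and the difference was -0.40 (SE 0.07, limma adjusted p = 0.348). A second, dimmer probe of Creb3 gave 0.14. F11r, the tight junction adhesion molecule JAM-A, ranged from 7.60 to 9.37 at 4 h (median 8.70) and from 7.27 to 8.53 at 24 h (median 7.82), a difference of -0.83 (SE 0.21, 1.78-fold lower, limma adjusted p = 0.420). The times overlapped, and F11r differed by -1.34, -1.07 and -0.09 within the 3 sets of arrays. Entpd2, an enzyme that breaks down extracellular ATP, differed by -0.32 (SE 0.08), Adssl1, an enzyme of AMP synthesis, by -0.42 (SE 0.09), and N4bp2l1 by -0.41 (SE 0.10). In these 3 genes 7, 7 and 6 pups at 24 h were below all pups at 4 h. Rnf41, a ubiquitin ligase, differed by -0.41 (SE 0.10), while its other probes gave 0.03 and 0.15. Lcn12, a lipocalin, differed by -0.42 (SE 0.10) and was near background, detected in 8 of 9 pups at 4 h and in 2 of 9 at 24 h.

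Several genes known from neurons were among the lower ones, while hormone cell genes showed no shared direction. Nnat, the imprinted gene of neuronatin, ranged from 5.63 to 6.52 at 4 h (median 6.08) and from 4.84 to 5.77 at 24 h (median 5.45), with 7 pups at 24 h below all those at 4 h. Its difference was -0.65 (SE 0.13, limma adjusted p = 0.348), and it was -0.43, -0.39 and -1.13 within PBS, DSM 17938 and ATCC PTA 6475 pups. Other, dimmer probes of Nnat gave -0.09 each, and the mean of its probes differed by -0.28. Htr3a, a subunit of the serotonin-gated channel, ranged from 5.80 to 6.61 at 4 h (median 6.29) and from 5.42 to 6.15 at 24 h (median 5.80), a difference of -0.50 (SE 0.10, limma adjusted p = 0.376). Both genes are known from neurons, and markers of enteric nerve and glia were lower in 9 of 10 measured genes (median -0.12), 1 of them at an unadjusted p under 0.05. This was Stmn2, a microtubule regulator of neurons, at -0.35 (SE 0.15). The nerve list had medians of -0.25 in PBS pups, 0.14 in DSM 17938 pups and -0.23 in ATCC PTA 6475 pups, where smooth muscle genes had -0.07, 0.27 and -0.21, and its mean signal ranged from 6.96 to 7.48 at 4 h and from 6.85 to 7.44 at 24 h. The part of nerve and muscle tissue in Nnat and Htr3a was not tested. In the enteroendocrine list 8 of 17 genes were higher and 9 lower, and the lower ones at an unadjusted p under 0.05 were Tac1, the precursor of substance P, at -0.47 (SE 0.16) and the granin Scg2 at -0.40 (SE 0.16). Gut hormones were not among them: Pyy differed by 0.15 and Gcg by 0.20.

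**Figure D4:**
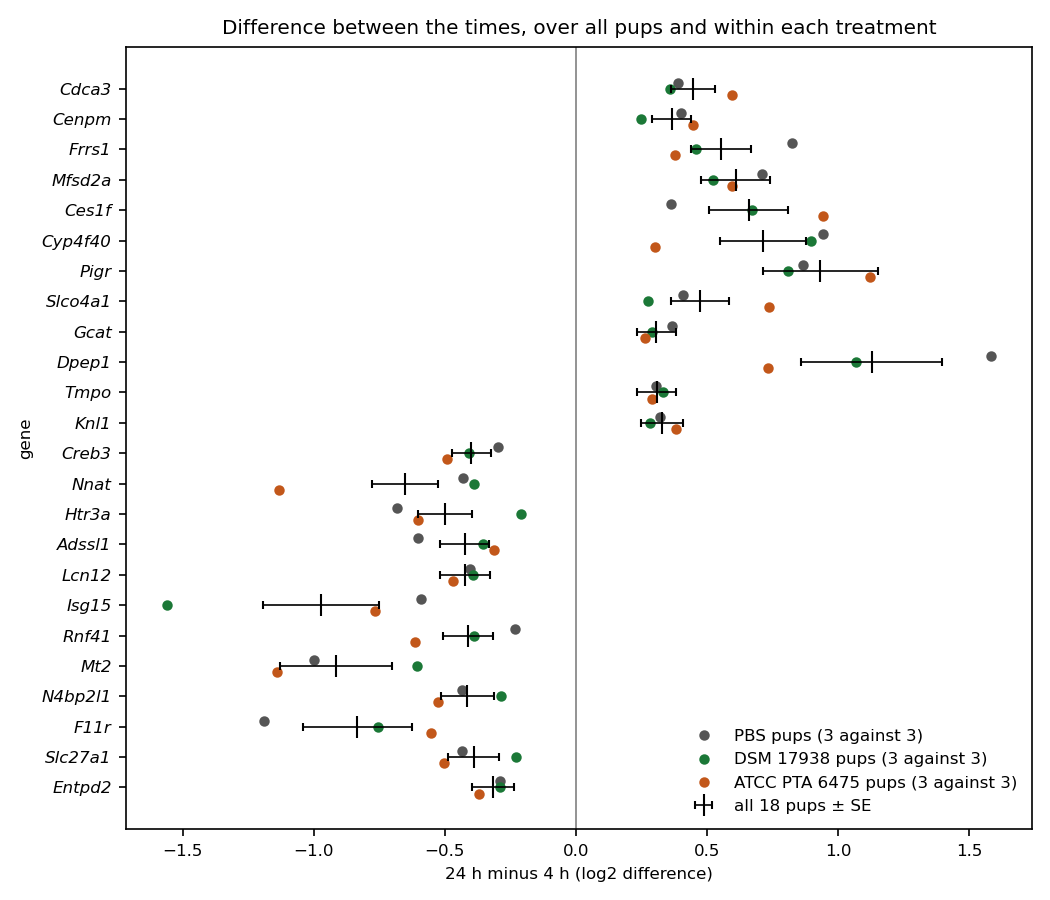
Difference of 24 h minus 4 h (horizontal axis, log2) for the 12 higher and 12 lower genes with the smallest p (vertical axis), within PBS, DSM 17938 and ATCC PTA 6475 pups (dots, 3 pups against 3) and over all 18 pups (bar ± SE). In each gene the 3 within-treatment differences have the sign of the pooled one, which these same values make up; Isg15 ranges from -0.59 to -1.56 between treatments and Dpep1 from 0.73 to 1.58.

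Post-weaning enterocyte genes were mostly higher at 24 h over all pups, by small values, but not in every set of arrays. Of 15 measured genes of the post-weaning enterocyte, 12 were higher and 3 lower with a median of 0.07, which became -0.003 under median scaling. On leaving out 1 array it ranged from 0.03, without the first DSM 17938 pup at 4 h, to 0.13, without the first of that group at 24 h. Within the 3 sets of arrays the median was -0.16, 0.31 and 0.11. By treatment it was 0.10 in PBS pups, 0.16 in ATCC PTA 6475 pups and -0.001 in DSM 17938 pups. In the last, 8 of 15 genes were lower. Fabp6, the bile acid binding protein of ileal cells, ranged from 7.55 to 11.75 at 4 h (median 9.44) and from 8.56 to 12.96 at 24 h (median 11.24). Fgf15, the hormone through which the ileum restrains bile acid synthesis in the liver, ranged from 7.45 to 8.62 at 4 h (median 7.97) and from 7.83 to 9.59 at 24 h (median 8.64). Both overlapped widely, with 4 and 5 pups at 24 h above all those at 4 h. The differences were 1.24 (SE 0.56, 2.36-fold higher) for Fabp6 and 0.68 (SE 0.24, 1.60-fold) for Fgf15, with limma adjusted p-values of 0.825 and 0.740. Within the sets Fabp6 differed by -0.38, 2.50 and 1.61 and Fgf15 by -0.35, 1.56 and 0.82. Slc51a, a bile acid exporter, differed by 0.19 (SE 0.10), and Treh, the trehalase of the brush border, by 0.29 (SE 0.12). Sis, the sucrase-isomaltase whose appearance marks weaning, differed by 0.04.

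Suckling-stage genes were lower in 15 of 23 (median -0.11), with 3 lower and 2 higher at an unadjusted p under 0.05. The lower ones were Fbp1, an enzyme of glucose synthesis, at -0.43 (SE 0.16), Nags, which makes the activator of citrulline synthesis, at -0.18 (SE 0.08, detected in 9 pups at 4 h and 3 at 24 h), and the lysosomal galactosidase Glb1 at -0.25, which was named after its values were seen. Higher were Tmigd1, an adhesion protein, at 0.46 (SE 0.15), and Pllp, a membrane protein of the endosomes of these cells, at 0.22 (SE 0.09). With a sex covariate 1 gene of the list was lower at an unadjusted p under 0.05, and on leaving out 1 array 1 to 4 were. The list's median was -0.11, 0.03 and -0.13 within the 3 sets of arrays. Tmigd1 differed by 0.46, 0.47 and 0.46 within PBS, DSM 17938 and ATCC PTA 6475 pups. Lct, the lactase that digests milk sugar, differed by -0.06 (SE 0.28) over all pups and by -0.59, 0.93 and -0.52 within PBS, DSM 17938 and ATCC PTA 6475 pups. It was named after its values were seen, as was Sis above. Intestinal transcription factors had 5 higher and 9 lower of 14 (median -0.04) with none at an unadjusted p under 0.05, and Hnf4a differed by 0.12.

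Circadian clock genes were followed individually, since the labels do not give the hour of sampling. Of 18 measured members, 11 were higher and 7 lower (median 0.04, or -0.05 under median scaling). In PBS pups 14 were lower (median -0.08), while 14 were higher in DSM 17938 pups (0.09) and 12 in ATCC PTA 6475 pups (0.11). The direction was the same in each treatment for 2 of the 18, against 29.6% of all features. Over all pups 1 member was past an unadjusted p of 0.05. This was Ciart, a repressor of the clock, with signals of 5.48 to 5.70 at 4 h (median 5.60) and 5.52 to 6.12 at 24 h (median 5.86). In 6 pups at 24 h it was above all 9 at 4 h, and the difference was 0.22 (SE 0.09, limma adjusted p = 0.798). The clock's repressors Nr1d1 and Nr1d2 differed by 0.21 (SE 0.12) and 0.29 (SE 0.19). Of the clock output factors, Tef differed by 0.18 (SE 0.14), Dbp by 0.12 (SE 0.13) and Hlf by 0.06 (SE 0.10). Among the activators, Arntl differed by 0.07 (SE 0.10), Clock by 0.02 (SE 0.09) and Npas2 by -0.15 (SE 0.14), with Rora at -0.13 (SE 0.20). Of the period and cryptochrome genes, which close the feedback loop, Per1 differed by -0.003 (SE 0.06), Per2 by -0.005 (SE 0.11), Per3 by 0.16 (SE 0.24) and Cry2 by -0.02 (SE 0.08). Timeless, Bhlhe40, Csnk1e and Csnk1d stood at 0.05, 0.03, -0.01 and -0.01, and the signs of Arntl, Timeless, Bhlhe40 and Clock turned under median scaling. The signals of Per1 ranged from 8.62 to 8.89 at 4 h and from 8.63 to 8.91 at 24 h, and those of Dbp from 9.37 to 10.02 and from 9.38 to 10.41, so that these strongly cycling genes of other tissues overlapped almost fully. The letters CACGTG, the E-box that the clock's activators bind, were found within 250 bases before the start in 3 of the 15 clock genes with an entry and in 6.86% of all genes. Clock-controlled output genes were 9 higher and 6 lower (median 0.02). Of these Slc9a3, the sodium-proton exchanger of the brush border, was lower by 0.57 (SE 0.26), with 7.59 to 10.41 at 4 h and 7.71 to 8.84 at 24 h. Immediate early genes, which respond within minutes to growth signals, were higher in 18 of 25 (median 0.06), with Ccn1 at 0.38 (SE 0.18) and Fos at 0.32 (SE 0.25). The list's median was 0.13 in PBS pups and 0.11 in DSM 17938 pups. In ATCC PTA 6475 pups it was -0.14, with 19 of 25 genes lower. Fos differed by -0.30, 1.10 and 0.15 within the sets of arrays.

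Other metabolic and stress lists had medians between -0.05 and 0.10. Respiratory chain and ATP synthase genes had 13 of 21 higher (median 0.01), led by Ndufb5 at 0.27 (SE 0.11) and Atp5a1 at 0.32 (SE 0.13), a second probe of which gave -0.06. Glycolysis and glucose synthesis genes had 9 of 16 higher (median 0.05), with the glucose-6-phosphate transporter Slc37a4 at 0.26 (SE 0.10). In arginine, citrulline and proline synthesis 7 of 12 were higher (median 0.05), with Prodh, which breaks down proline, at 0.32 (SE 0.10) and a second probe at 0.34. Heat shock genes were higher in 14 of 19 (median 0.10), with the chaperone Hsp90aa1 at 0.35 (SE 0.10, limma adjusted p = 0.628) and 7 pups at 24 h above all those at 4 h. Endoplasmic reticulum folding genes were higher in 17 of 21 (median 0.08), with the disulfide isomerase Pdia6 at 0.31 (SE 0.15). Cytosolic ribosomal protein genes were lower in 16 of 21 (median -0.05), and their largest difference, 0.33 for Rpl14, was in a probe detected in 3 and 5 of 9 pups.

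The captured tissue carried the markers of its label at both times. The 12 measured epithelial identity genes had a mean signal of 10.24 to 10.92 at 4 h and 10.32 to 10.79 at 24 h, and 7 were higher and 5 lower (median 0.02). Markers of other tissue were present too. Smooth muscle genes had a mean signal of 10.02 to 10.98 at 4 h and 10.09 to 10.82 at 24 h, and fibroblast and matrix genes one of 9.49 to 10.42 and 10.03 to 10.33. Over all pups the smooth muscle list had a median of 0.01, but it was -0.07 in PBS pups, 0.27 in DSM 17938 pups and -0.21 in ATCC PTA 6475 pups. The fibroblast list had a median of -0.01, with 0.02, 0.05 and 0.01 in the same order, and the endothelial list one of -0.01. None of these 3 lists had a gene at an unadjusted p under 0.05. Erythrocyte genes had a median of 0.06 and pancreatic acinar genes one of -0.11, with Ctrb1 at -0.42 (SE 0.20). Of tuft cell markers 4 of 12 were measured, with differences of -0.08 to -0.03.

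Whether the difference between the times itself differed between treatments was tested as an interaction. No feature passed (lowest limma adjusted p = 0.99985), and 506 of 16835 had an unadjusted p under 0.05 (3.01%). Within a single treatment no feature passed either: the lowest limma adjusted p was 0.99929 in PBS pups, 0.9997 in DSM 17938 pups and 0.163 in ATCC PTA 6475 pups, and 642, 416 and 997 features had an unadjusted p under 0.05. The median standard error within a treatment was 0.183. Agr2, a disulfide isomerase of goblet cells needed for mucus, had the smallest interaction p (limma adjusted p = 0.99985). It differed between the times by 0.55 in PBS pups, -0.52 in DSM 17938 pups and 0.54 in ATCC PTA 6475 pups. Clca1, a secreted protein of goblet cell mucus, had a like order of 0.43, -0.49 and 0.42. Hsd3b2, a steroid dehydrogenase, differed by -0.37, -0.01 and 0.54 in the same order, with signals of 12.08 to 12.47 at 4 h and 11.72 to 12.88 at 24 h. Nme5, a gene of cilia and flagella, differed by -0.37, 0.64 and -0.38. Ccndbp1, a cyclin D binding protein, stood at -0.24, -0.14 and 0.61, and Tubgcp4, a subunit of the gamma-tubulin ring, at -0.35, 0.08 and 0.61; for both, a second probe gave a pooled difference of the opposite sign. Of the 992 features with an unadjusted p under 0.05 for time, 888 had the same direction in each treatment, which follows in part from how these features were picked.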

How the data were processed

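RNA from laser-captured ileal epithelium of 18 pups was measured on Illumina mouse bead arrays, 1 array per pup. The authors deposited a bead signal intensity for each of 45281 probes, which per the file headers had no normalisation, and GenomeStudio is named in the submitters' processing notes without a version. Beside each intensity they deposited a fraction that the file headers call a detection p-value and that rose with the signal, so it was read as 1 minus p. The authors also deposited log2 values with the same median, 5.92, in every array, with no method stated per the labels; they served as an alternative, each column matching its own array best.

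From the intensities, background was corrected with normexp and an offset of 16, arrays were quantile-normalised and log2 values taken (neqc in limma 3.58.1, R 4.3.3). The 24506 probes kept had a detection p under 0.05 in 3 or more arrays. Symbols came from the platform annotation and were updated through gene IDs: 34885 probes had 1 symbol, 18 several and 10378 none. The brightest probe stood for each gene. limma was fitted with treatment and time as factors, a fit of 6 group means gave the interaction and the within-treatment differences, and p-values were adjusted by Benjamini-Hochberg. The scripts were tested on simulated data.

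The 12 higher and 12 lower genes with the smallest p were named, with 6 for the interaction, all measured clock genes and up to 4 genes per list; exceptions are stated. Members and the 40 gene lists, with the histone list in addition, were chosen with earlier results of these data known. Promoters are RefSeq's, of build GRCm38.p6, matched by symbol. The labels do not say whether pups shared litters, so p-values measure the spread between these pups. Alternatives were the offset, scaling, deposited values, detection filter, replicate number as a block, sex, array weights, probe averaging and leaving out arrays. Replicate numbers were not treated as pairs or blocks in the main fit. Between the times of a treatment, 5 of 9 same-numbered pairs correlated over 0.1 (range -0.03 to 0.35). With group means removed, arrays of different groups correlated by 0.19 on average if same-numbered, and by -0.10 otherwise. The main fit leaves what same-numbered arrays share in its residual spread. Replicate numbers do coincide with consecutive array identifiers in the labels. The block is therefore given where it changes a call, and values within the sets for several genes and lists.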

Additional observations from a re-analysis of the deposited data

Results flagged for a closer look

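In 6 of 180 sets of 9 arrays checked, 1 array stood apart from the other 8, where chance alone marks about 1 in 20 such sets. Gcat stood at 11.14 in the second PBS pup at 24 h, against 10.71 to 10.91 in the others. Dpep1 stood at 6.93 in the third DSM 17938 pup at 4 h, against 4.78 to 5.81. Treh stood at 4.77 in the third ATCC PTA 6475 pup at 4 h, against 5.48 to 6.13. Ccnd1 stood at 12.20 in the second ATCC PTA 6475 pup at 4 h, against 11.80 to 11.99. The first PBS pup at 24 h had Reg3a at 8.13, against 9.40 to 10.67, and Hsp90aa1 at 8.51, against 9.02 to 9.51. That pup also had the highest myeloid level of the 18.

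Only named genes were checked for opposite directions. For 5 of them all pups at 24 h lay above all pups at 4 h in at least 1 treatment and below them in another. Agr2 differed between 24 h and 4 h by 0.55 in PBS pups, -0.52 in DSM 17938 pups and 0.54 in ATCC PTA 6475 pups. Clca1 differed by -0.49 in DSM 17938 pups and by 0.42 in ATCC PTA 6475 pups. In PBS and ATCC PTA 6475 pups, Tubgcp4 differed by -0.35 and 0.61 and Hsd3b2 by -0.37 and 0.54. Nme5 differed by -0.37 in PBS pups and 0.64 in DSM 17938 pups. Tested as an interaction, none of the 5 passed (limma adjusted p = 0.99985 for each), and they were named for their small interaction p. Their opposite directions follow in part from that choice, and the share of all features with such a pattern was not counted.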

How the results depend on the processing

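The count of 0 features past the adjusted threshold for time held under the alternatives run except with the replicate number as a block, where 1 passed: Mt2 at -0.91 (limma adjusted p = 0.00798; 0.00798 to 0.780 over its alternatives). The block moved no other call on time; within treatments it gave 0 passing features. Of the 18 arrays, 15 correlated best with their own number. The numbers coincide with sets of consecutive array identifiers, and what a set shares is not stated in the labels. The 992 features at an unadjusted p under 0.05 became 544 under median scaling (129 higher, 415 lower, the median of all features moving to -0.06), 1525 without the detection filter, and 786 to 1261 on leaving out 1 array. At that p 804 features were higher and 565 lower with the replicate block, and 743 and 515 with array weights. For the interaction 506 became 185 under median scaling, 992 without the filter, 797 with the block, 903 with array weights and 370 to 731 on leaving out 1 array. Within ATCC PTA 6475 pups array weights gave 1 passing feature. Leaving out 1 array gave 0 to 2 in PBS pups (2 without the first DSM 17938 pup at 24 h, 1 without the third PBS pup at 24 h), 0 to 3 in DSM 17938 pups (3 without its first pup at 4 h) and 0 to 2 in ATCC PTA 6475 pups (2 without its first pup at 24 h).

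None of the 24 leading genes changed sign in any setting run, but some became much smaller. Averaging all probes gave -0.08 for Rnf41, -0.13 for Creb3, -0.28 for Nnat, 0.15 for Tmpo and 0.21 for Knl1. An offset of 50 gave 0.31 for Mfsd2a, 0.42 for Ces1f, 0.16 for Knl1, -0.40 for Nnat, -0.33 for Htr3a, -0.27 for Adssl1 and -0.20 for Lcn12. The deposited values gave 0.32, 0.40, 0.17, -0.38, -0.32, -0.26 and -0.21 for the same 7 genes, and 0.74 for Dpep1. Signs turned in genes whose difference was near 0. Averaging all probes gave -0.12 for Ccndbp1, -0.050 for Tubgcp4 and -0.13 for Clock. Median scaling gave -0.010 for Hsd3b2, -0.0026 for Arntl, -0.033 for Timeless, -0.057 for Bhlhe40 and -0.067 for Clock. A sex covariate gave 0.016 for Nme5, 0.028 for Csnk1d, 0.00786 for Per1 and 0.00334 for Per2; array weights gave 0.00887 for Per1. Without both arrays highest in interferon-stimulated genes, a choice made after seeing the data, Csnk1d was 0.052. On leaving out 1 array, Hsd3b2 ranged from -0.0057 to 0.11, Nme5 from -0.11 to 0.037, Timeless from -0.032 to 0.12, Bhlhe40 from -0.054 to 0.094 and Cry2 from -0.040 to 0.023. Clock ranged from -0.039 to 0.061, Csnk1e from -0.045 to 0.023, Csnk1d from -0.056 to 0.041, Per1 from -0.023 to 0.013 and Per2 from -0.055 to 0.049. The cause was not tested. Genes near background, such as Knl1 and Lcn12, are limited by their signal. A sex covariate also moved the counts of list members past an unadjusted p of 0.05 in the list's direction. They fell from 18 to 14 for histone, 8 to 6 for cell cycle, 8 to 7 for interferon and 7 to 6 for cholesterol genes. For antimicrobial, post-weaning and suckling-stage genes they fell from 3 to 1. Class I and fatty acid synthesis genes stayed at 5 and metal genes at 3, and clock genes rose from 1 to 2.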
